A study of Mus musculus with 36 samples.

Results

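The neurofilament, tau and neuronal cytoskeleton genes examined in mouse hippocampus were 10 genes that neurons use to build and organise their cytoskeleton. They are the neurofilament subunit genes Nefl, Nefm and Nefh, the related filament gene Ina, the microtubule-associated protein genes Mapt (tau), Map1b and Map2, the neuronal tubulin gene Tubb3, the stathmin gene Stmn2 and the neuronal surface gene Thy1. They were taken by name from a table of 36172 gene entries, 8 by symbol and 2 (Map1b and Map2) by gene identifier, because the table lists these under older symbols. The animals were Cx3cr1-NuTRAP mice. Their cre recombinase is expressed where Cx3cr1 is, which in brain means chiefly microglia, and tamoxifen activates it so that ribosomes of these cells gain a GFP tag. An anti-GFP antibody then recovers tagged polysomes with their RNA (translating ribosome affinity purification, TRAP), and the input is a portion of the cleared homogenate kept from before that step. All groups carried the same genotype and all were induced, so no group without cre activation was compared. The young early-induced inputs came from 10 animals of 6 months (5 females, 5 males), the old early-induced inputs from 12 animals of 22 months (7 females, 5 males) and the old late-induced inputs from 7 animals of 22 months (5 females, 2 males). The 7 TRAP libraries were made from the homogenates of the late-induced old animals. The study asked how the age at induction affects the use of this mouse line for isolating microglial RNA and finding changes with age.

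Neurofilaments are intermediate filaments that fill axons and set their calibre. They are co-polymers of a light (Nefl), a medium (Nefm) and a heavy (Nefh) chain, with alpha-internexin (Ina) as a further subunit in the central nervous system. Microtubules, polymers of alpha- and beta-tubulin, are the tracks of axonal transport, and tau (Mapt) binds along them in axons, while MAP2 is found mainly in dendrites. Stathmins such as Stmn2 bind free tubulin and are concentrated in growing axons, and Thy1 is a membrane-anchored glycoprotein used as a marker of projection neurons. Neurofilament light chain and tau are measured in body fluids as markers of axonal damage, and tau forms the tangles of Alzheimer's disease.

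The promoter windows of Ina and Tubb3 are shown because these are the quantified genes of the set with an entry in the RefSeq promoter table (GRCm38.p6), and Ina is the filament gene called lower in old late-induced than in young inputs. Each run covers the 250 bases before the gene's start on the gene's strand. Capitals mark matches to the GC box core GGGCGG or its reverse complement, and to CCAAT or its reverse complement, and no base belongs to both kinds of match. Ina lies at chr19:47014431-47014680 (plus strand) and Tubb3 at chr8:123411303-123411552 (plus strand).
Ina: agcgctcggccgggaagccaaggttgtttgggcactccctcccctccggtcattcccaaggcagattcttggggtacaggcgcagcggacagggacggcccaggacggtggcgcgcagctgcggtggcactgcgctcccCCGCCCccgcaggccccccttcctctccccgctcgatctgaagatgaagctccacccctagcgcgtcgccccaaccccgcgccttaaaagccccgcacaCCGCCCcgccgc
Tubb3: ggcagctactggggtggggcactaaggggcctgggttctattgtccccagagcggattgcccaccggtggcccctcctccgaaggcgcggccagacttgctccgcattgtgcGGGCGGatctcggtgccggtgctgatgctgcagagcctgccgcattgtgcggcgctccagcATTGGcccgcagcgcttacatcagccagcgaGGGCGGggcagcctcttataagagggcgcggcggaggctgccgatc
GC box cores lie 111 and 12 bases before the start of Ina, and 138 and 46 bases before that of Tubb3. On either strand, 32.97% of 32536 promoter windows of this length hold GGGCGG and 33.81% hold CCAAT. The TATA box core TATAAA (12.31% of windows) and TGACGTCA (1.555% of windows) were also searched on both strands, and neither occurs in these windows. The GC content is 70.8% for Ina and 68% for Tubb3.

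In the coordinates of the deposited table (the submitters' processing notes name mm10), Nefl (gene identifier 18039) lies on chromosome 14 from 68083884 to 68087737 and Nefm (18040) on the same chromosome from 68119545 to 68125004. Nefh (380684) lies on chromosome 11 from 4938756 to 4948064, and Mapt (17762) on chromosome 11 from 104231436 to 104332093. Ina (226180) lies on chromosome 19 from 47014698 to 47024346, and Tubb3 (22152) on chromosome 8 from 123411564 to 123422010. Stmn2 (20257) lies on chromosome 3 from 8509527 to 8561604, and Thy1 (21838) on chromosome 9 from 44043384 to 44048579. Map1b (17755) lies on chromosome 13 from 99421464 to 99516602, and Map2 (17756) on chromosome 1 from 66175329 to 66442583. The genes for the light and medium chains are thus neighbours.

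Each library held between 12.9 and 20.4 M estimated counts in total, and each quantified gene of the set had at least 908 of them in every library. Levels are given as CPM (read counts scaled to a common depth), computed by effective library size over all 36 libraries. Cx3cr1 was higher in TRAP than in input by 4.09 ± 0.12 on the log2 scale (SE), which checks the pulldown. The 14 genes of a list of neuron markers summed to between 14524 and 17098 CPM in the inputs. Libraries stood apart in marker genes of neighbouring tissue. Summed over 6 genes of choroid plexus, the tissue that secretes cerebrospinal fluid, inputs fell into 2 classes with nothing between 191.9 and 1691 CPM. The high class held 6 of 10 young, 4 of 12 old early-induced and 5 of 7 old late-induced inputs. Summed over 8 thalamus genes, 3 inputs exceeded 180 CPM, old early-induced replicate 2 (341 CPM), old early-induced replicate 10 (224 CPM) and young replicate 6 (193 CPM). In TRAP this sum ranged from 183 to 275 CPM, and Prkcd of the list was higher in TRAP than in input by 1.97 on the log2 scale. The part of thalamic tissue in the sum was not tested. The order of the sample sheet follows the groups, and these cannot be told apart. In bulk tissue, fewer cells of a type and less RNA per cell cannot be told apart either.

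Map1b and Map2, which stabilise microtubules in growing neurites and dendrites, were listed at 0 in all 36 libraries, as were 13 genes of the related lists that also carry older symbols in the table, among them Map1a, Map4 and Sptan1. Of 2188 protein-coding entries whose symbol differs from RefSeq's, 40.04% were at 0 in every library, against 8.80% of 18816 entries with the same symbol. No level or fold change is given for Map1b and Map2, and all counts below are of the 8 other genes.

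Compared per kilobase of transcript, in CPM per kb, the order of the levels in young input was Thy1 (414 ± 19.3), Stmn2 (173 ± 9.62), Tubb3 (160 ± 5.77), Nefl (149 ± 3.42), Mapt (118 ± 2.64), Nefm (95.1 ± 3.92), Ina (58.9 ± 2.00) and Nefh (25.8 ± 1.81), each as mean ± SD with n = 10. Neurofilament chains thus ranked light, medium, heavy, the light chain gene at several times the level per length of the heavy chain gene. Stmn2 (161 to 195 CPM per kb) overlapped Tubb3 (147 to 168), and Tubb3 overlapped Nefl (142 to 154), while the other neighbours in the order did not overlap. The places of Stmn2 and Nefm depend on the length assumed. With the union of all annotated exons as length Stmn2 had 63.9 CPM per kb and rank 5. Nefm then had 54.9 CPM per kb (52.0 to 58.2) and lay below Ina (55.3 to 62.2), with overlap. By transcript length, old inputs had Thy1 highest and Ina and Nefh lowest too. These 2 were at 53.01 and 26.6 CPM per kb with early and 52.2 and 26.9 CPM per kb with late induction. In TRAP the order by transcript length was that of the old late-induced inputs, from Thy1 at 333 ± 29.1 to Nefh at 18.03 ± 1.72 CPM per kb (SD, n = 7).

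**Figure D1:**
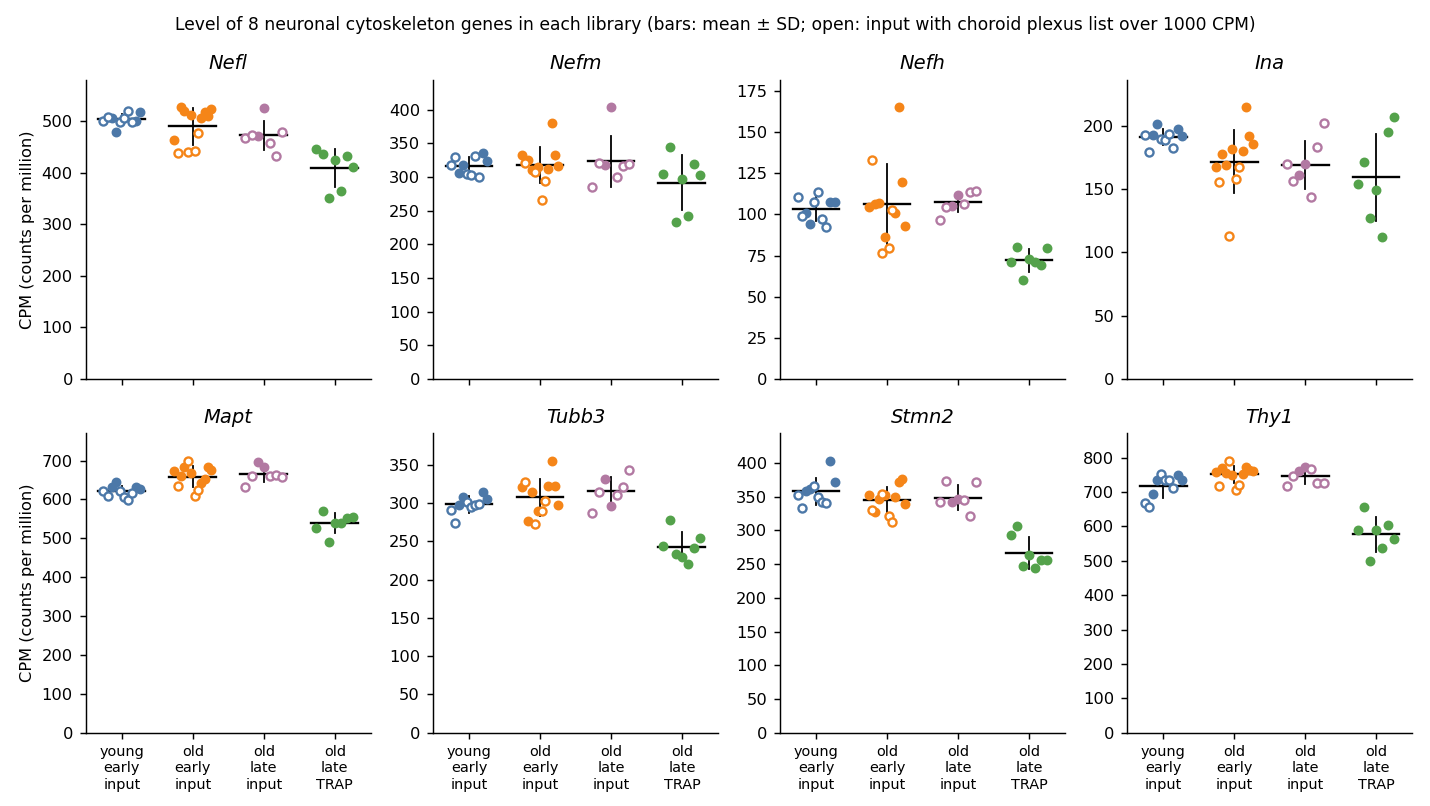
Level of each quantified gene in CPM (vertical axes, from 0) in the 4 groups. Points are libraries, horizontal bars means and vertical bars SD, and open points are inputs in the high choroid plexus class. Mapt of most old inputs lies above the young range, old inputs of Ina spread downward, and Nefh, Mapt, Tubb3, Stmn2 and Thy1 of TRAP lie below all inputs of the same animals.

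The first comparison asked what differed with age between early-induced animals. Tau and Thy1 transcripts were slightly higher in old input, by 6.80% and 5.18%, and the filament genes of the neurofilament family did not pass the test. With edgeR's quasi-likelihood test and p-values adjusted over 14948 genes, 2 of the 8 genes were called, both higher, where 25.6% of all genes were called, 13% higher and 12.6% lower. Their median log2 fold change was 0.02, against 0.01 over all genes.

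Mapt ranged from 598 to 645 CPM in young (median 622) and from 608 to 700 CPM in old early-induced input (median 665). Most old libraries, 8 of 12, lay above the highest young library, and none lay below the lowest. Its log2 fold change was 0.09 ± 0.02 (SE; adjusted p by edgeR 0.00331). It kept this call without any single library, with adjusted p-values from 0.0014 to 0.0187. It lost it when only the low or only the high choroid plexus class was fitted (0.08 and 0.07, adjusted p 0.126 and 0.286) and kept it with class as a covariate (0.08, adjusted p 0.00474).

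Thy1, whose product sits on the surface of neurons, ranged from 657 to 753 CPM in young (median 735) and from 705 to 792 CPM in old early-induced input (median 758). Again 8 of 12 old libraries exceeded the young range. The log2 fold change of 0.07 ± 0.02 (SE; adjusted p by edgeR 0.0298) was close to the threshold. The call was lost, with adjusted p-values from 0.0514 to 0.102, without any of young replicates 1, 2, 3 and 8, old early replicates 3, 4, 5, 6, 11 and 12, and old late replicates 1, 3, 4 and 7. It was also lost in females only (0.04, adjusted p 0.411), without the filter on low counts (0.07, adjusted p 0.0838), in the fit of these 2 groups alone (0.07, adjusted p 0.0598) and in the low and the high choroid plexus class (0.05 and 0.08, adjusted p 0.357 and 0.308).

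Ina ranged from 179 to 202 CPM in young (median 192), a narrow band, and from 113 to 215 CPM in old early-induced input (median 173). Old values lay mostly low: 7 of 12 were below the lowest young library and 1, replicate 10, was above the highest. The log2 fold change of -0.16 ± 0.06 (SE) had an edgeR adjusted p of 0.0546 and so did not pass. DESeq2 (adjusted p 0.0377), limma voom (0.048), the fit of these 2 groups alone (0.0404) and scaling by library size only (0.0475) did call it. So did the fit with choroid plexus class as a covariate (-0.19, adjusted p 0.0113) and the fit without the 3 libraries high in thalamus genes (-0.19, adjusted p 0.0344). The high choroid plexus class alone gave -0.29 (adjusted p 0.0479), and leaving out old early replicate 10 gave -0.18 (adjusted p 0.0207). Other settings did not call it. They were upper quartile scaling (-0.14, adjusted p 0.0649), no filter on low counts (-0.16, adjusted p 0.0627), no sex covariate (-0.14, adjusted p 0.0991), the low choroid plexus class alone (-0.13, adjusted p 0.189) and females only, where the value was smallest (-0.05, adjusted p 0.744). Without single libraries the log2 fold change ranged from -0.18 to -0.12 and the adjusted p from 0.0207 to 0.0951.

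The 3 neurofilament chains showed no called difference. Nefl, the light chain gene, ranged from 479 to 521 CPM in young (median 504) and from 438 to 528 CPM in old early-induced input (median 509), a log2 fold change of -0.04 ± 0.03 (SE; adjusted p by edgeR 0.42). Its old values split by choroid plexus class. The 4 old early-induced inputs of the high class averaged 449.6 ± 18.5 CPM and the 8 of the low class 511 ± 20.5 CPM (SD), while the young classes averaged 506 ± 8.76 (n = 6) and 501 ± 16.0 CPM (n = 4). Within the high class alone the fold change of Nefl was -0.16 (adjusted p 0.022), and within the low class 0.0017 (adjusted p 0.99). Class and sex largely went together in these old early-induced inputs. Of the high class, replicates 2, 5 and 7 were males (438, 441 and 443 CPM) and replicate 8 was a female (477 CPM). The males of the low class, replicates 1 and 6, had 463 and 513 CPM. The parts of class and sex in the split cannot be fully told apart, and a different response in the 2 classes was not tested.

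Nefm, the medium chain gene, ranged from 301 to 336 CPM in young (median 318) and from 266 to 381 CPM in old early-induced input (median 316). Nefh, the heavy chain gene, ranged from 92.4 to 113 CPM in young (median 104) and from 76.8 to 165 CPM in old early-induced input (median 104). The old ranges enclosed the young ones for both genes. Nefh differed by 0.04 ± 0.08 (SE; adjusted p by edgeR 0.789), with a 95% interval from -8.36% to 14.6%. Its highest values came from the 2 old libraries high in thalamus genes, replicate 10 (165 CPM) and replicate 2 (133 CPM). Without replicate 10 its log2 fold change turned to -0.03, and without all 3 libraries high in thalamus genes to -0.08 (adjusted p 0.329).

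Tubb3 and Stmn2 did not pass either. Tubb3, a beta-tubulin made largely by neurons, ranged from 274 to 315 CPM in young (median 298) and from 272 to 355 CPM in old early-induced input (median 308), with a log2 fold change of 0.05 ± 0.04 (SE; adjusted p by edgeR 0.346). Stmn2 ranged from 333 to 404 CPM in young (median 356) and from 312 to 377 CPM in old early-induced input (median 348), with a log2 fold change of -0.05 ± 0.03 (SE; adjusted p by edgeR 0.329). The 95% intervals ran from -1.59% to 8.66% for Tubb3 and from -7.60% to 1.41% for Stmn2.

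**Figure D2:**
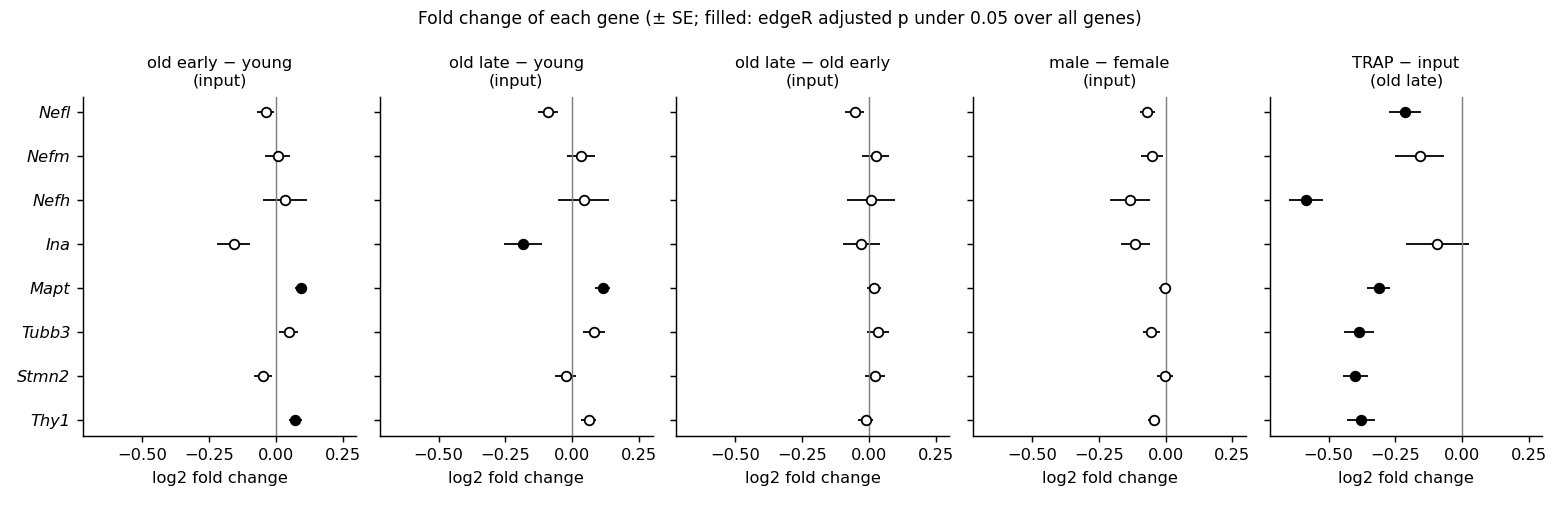
Log2 fold change of each gene (horizontal axis) in 5 comparisons, with bars of 1 SE and filled points for an edgeR adjusted p under 0.05 over all genes. Mapt is filled in both comparisons with young, Thy1 in the first and Ina in the second, no gene is filled for induction age or sex, and 6 of 8 lie to the left of 0 and are filled in TRAP.

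The second comparison set the old late-induced inputs against the same young libraries, so that age differs and induction age cannot be separated from it. Tau was higher by 8.16% and alpha-internexin lower by 12.1%, and these 2 of 8 genes were called, 1 higher and 1 lower (2 higher and 0 lower under upper quartile scaling), where 34.5% of all genes were called, 17% higher and 17.5% lower. The median log2 fold change of the 8 was 0.04, against 0.01 over all genes. Both comparisons share the young libraries, so their values are given side by side and are not independent.

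Mapt ranged from 632 to 696 CPM in old late-induced input (median 662), with 6 of 7 libraries above the highest young one. The log2 fold change was 0.11 ± 0.03 (SE; adjusted p by edgeR 0.00186), beside 0.09 in early-induced animals. Without any single library it stayed between 0.09 and 0.12, with adjusted p-values from 0.0012 to 0.0126. In the high choroid plexus class alone it was 0.11 (adjusted p 0.0542), and in the low class 0.15 (adjusted p 0.043).

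Ina ranged from 143 to 202 CPM in old late-induced input (median 170). Of 7 libraries, 5 lay below the lowest young library and 1, replicate 7, lay just above the highest. The log2 fold change was -0.19 ± 0.07 (SE; adjusted p by edgeR 0.0416), beside -0.16 in early-induced animals. The call was lost without any of old late replicates 2, 3, 4 and 5 and young replicates 1, 3, 4 and 10, with adjusted p-values from 0.0506 to 0.0989. It was also lost under upper quartile scaling (-0.16, adjusted p 0.0538), without the filter on low counts (-0.19, adjusted p 0.0528), in females only (-0.14, adjusted p 0.206), without the sex covariate (-0.16, adjusted p 0.0947) and in the high choroid plexus class alone (-0.12, adjusted p 0.35). The interval of Ina overlaps that of Nt5c2 on the other strand, as Nefh does Ap1b1 and Nefm does A230070E04Rik. Strand handling is not given in the sources used here.

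Nefl ranged from 432 to 527 CPM in old late-induced input (median 473), and 5 of 7 libraries were below the young range. Its log2 fold change of -0.09 ± 0.04 (SE) had an edgeR adjusted p of 0.0598. It passed without old late replicate 1 or 4, young replicate 8 or 9, or old early replicate 2, 3, 5, 6 or 8, with adjusted p-values from 0.0112 to 0.0498, and in the high choroid plexus class alone (-0.12, adjusted p 0.0443).

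The other 5 genes were not called. Nefm ranged from 286 to 404 CPM (median 318) and Nefh from 96.8 to 114 CPM (median 106), with log2 fold changes of 0.03 and 0.04 (edgeR adjusted p 0.681 and 0.76). Tubb3 ranged from 287 to 343 CPM (median 315), a log2 fold change of 0.08 ± 0.04 (SE; adjusted p by edgeR 0.136). Stmn2 ranged from 321 to 373 CPM (median 345) and differed by -0.02 ± 0.04 (SE; adjusted p by edgeR 0.675). Thy1 ranged from 718 to 773 CPM (median 748), a log2 fold change of 0.06 ± 0.03 (SE; adjusted p by edgeR 0.1), which passed under upper quartile scaling (0.08, adjusted p 0.0306) and library size scaling (0.07, adjusted p 0.0483).

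The spread between animals differed between the groups, upward with age for some genes and downward for Thy1. As a coefficient of variation in CPM, it was 3.39% in young inputs, 14.3% with early and 11.2% with late induction in old inputs for Ina, and 2.29%, 7.26% and 5.99% for Nefl in the same order. Nefm had 4.12%, 8.47% and 11.7%. Nefh reached 23.03% in old early-induced inputs but had 7.03% in young and 5.78% in old late-induced ones. Stmn2 had a like spread in all 3 groups (5.57%, 5.65% and 5.17%), and Thy1 had a smaller one in old inputs (4.67%, 3.34% and 2.93%). These spreads are descriptions without a test, and the share of libraries in the high choroid plexus class differs between the groups.

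A ratio of genes within a library does not depend on the scaling between libraries. The log2 ratio of Nefl to Mapt ranged from -0.43 to -0.20 in young inputs and, in old ones, from -0.67 to -0.33 with early and from -0.62 to -0.38 with late induction. That of Ina to Mapt ranged from -1.76 to -1.63 in young, from -2.63 to -1.60 and from -2.21 to -1.71 in the old groups. The old medians were lower in both ratios. These ratios were chosen after the levels were seen and carry no test.

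The third comparison asked whether induction age mattered in old animals. None of the 8 genes was called between old late-induced and old early-induced inputs, where 0.0334% of all genes were, 0.0268% higher and 0.00669% lower. With edgeR's test 0 of 8 had an unadjusted p under 0.05, where 1736 of 14948 genes did, and DESeq2 and limma voom called 0. Log2 fold changes ranged from -0.05 for Nefl to 0.03 for Tubb3. The 95% interval was tightest for Mapt, from -2.26% to 4.94%, and widest for Nefh, from -11.2% to 13.8%, with Ina from -10.5% to 7.50%. This is also the direct test of whether the 2 age differences of a gene differ, so Thy1 and Ina are not shown to differ between induction ages.

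Males and females were compared over all inputs with group held fixed. None of the 8 genes was called by edgeR, DESeq2 or limma voom, where edgeR called 0.174% of all genes, 0.0468% higher and 0.127% lower in males. At an unadjusted p under 0.05 there were 2, Nefl (-0.07 ± 0.03, SE) and Ina (-0.11 ± 0.05, SE), both lower in males, with edgeR adjusted p-values of 0.393 and 0.453. Of all 14948 genes, 1632 had an unadjusted p under 0.05 by edgeR. Nefh had the most negative value (-0.13 ± 0.07, SE) and Mapt and Stmn2 the values nearest 0 (below 0.005 in size).

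The fourth comparison asked what the pulldown of ribosome-bound RNA from tagged cells did to these neuronal transcripts. The change was modest, and 6 of 8 genes were lower in TRAP than in input, by 13.9% for Nefl to 33.3% for Nefh. EdgeR's test called 59.2% of all genes in this comparison, 30.4% higher and 28.8% lower. The median log2 fold change of the 8 was -0.35, against -0.02 over all genes, -0.24 over 14 neuron markers, -1.34 over 12 oligodendrocyte markers, -0.46 over 10 astrocyte markers and 4.28 over 15 microglia markers.

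Nefh, the heavy neurofilament chain gene, had the largest fall. It ranged from 96.8 to 114 CPM in input (median 106) and from 60.0 to 80.3 CPM in TRAP (median 71.3). The groups did not overlap, and all 7 animals had less in TRAP, with log2 ratios from -0.81 to -0.38. The log2 fold change was -0.58 ± 0.06 (SE; adjusted p by edgeR 4.82e-07).

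Stmn2, Tubb3, Thy1 and Mapt were lower in TRAP in 7 of 7 animals, and none of them overlapped between the groups. How many of all genes had no overlap was not counted, so for these and Nefh it is a description of single genes. Stmn2 ranged from 244 to 306 CPM in TRAP (median 256), a log2 fold change of -0.40 ± 0.05 (SE; adjusted p by edgeR 1.37e-06). Tubb3 ranged from 220 to 278 CPM (median 241), a log2 fold change of -0.39 ± 0.06 (SE; adjusted p by edgeR 1.43e-05). Thy1 ranged from 500 to 657 CPM (median 589), a log2 fold change of -0.38 ± 0.05 (SE; adjusted p by edgeR 1.09e-05). Mapt kept more of its input level, ranging from 489 to 571 CPM (median 539), a log2 fold change of -0.31 ± 0.04 (SE; adjusted p by edgeR 8.9e-06).

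Nefl fell by less. It ranged from 352 to 446 CPM in TRAP (median 426), overlapping the input range in 3 animals, and was lower in 6 of 7 animals, with log2 ratios from -0.43 to 0.0045. Its log2 fold change was -0.22 ± 0.06 (SE; adjusted p by edgeR 0.00529).

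Nefm and Ina did not pass. Nefm ranged from 233 to 344 CPM in TRAP (median 303), with 4 of 7 animals lower and a log2 fold change of -0.16 ± 0.09 (SE; adjusted p by edgeR 0.141). It was called under upper quartile scaling (-0.30, adjusted p 0.0112) and library size scaling (-0.26, adjusted p 0.0283), under which the median of all genes moved from -0.02 to -0.16 and -0.13 and the share of higher among all calls from 51.4% to 33.98% and 38.3%. Ina ranged from 112 to 207 CPM in TRAP (median 154), also lower in 4 of 7 animals, with a log2 fold change of -0.09 ± 0.12 (SE; adjusted p by edgeR 0.52). Against the shifted medians, the 6 called genes were lower under both scalings too, and their calls also stood with the animal as a block.

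The log2 ratios differed between animals, and the order of the animals was not the same for every gene. Animal 3, a female, had the lowest log2 ratio of the 7 for Nefl, Nefm, Nefh, Mapt, Tubb3 and Thy1. Animal 6 had the highest ratio for Nefl (0.0045) but the second lowest for Nefh (-0.72), and animal 7 had the lowest for Stmn2 (-0.54) but 0.04 for Ina. The 2 males had mean log2 ratios of -0.09 for Nefl, 0.10 for Nefm and -0.41 for Nefh, against -0.26, -0.25 and -0.65 in the 5 females. The only neuron markers examined per animal showed the same order, with Snap25 at -0.12 in males and -0.36 in females and Rbfox3 at 0.03 and -0.18. The summed microglia markers of the TRAP libraries ranged from 12483 CPM in animal 2, a male, to 20023 CPM in animal 3. A difference between sexes in the pulldown was not tested, and the part of microglial yield in it was not tested.

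**Figure D3:**
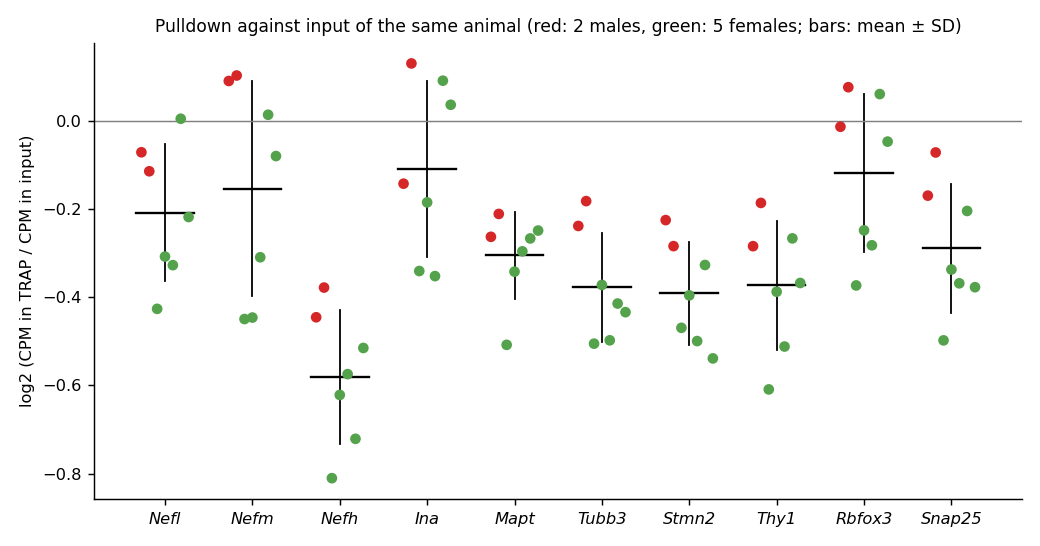
Log2 ratio of CPM in TRAP to CPM in input (vertical axis) for the 8 genes and the neuron markers Rbfox3 and Snap25, with a point per animal, red for the 2 males and green for the 5 females, and bars for mean ± SD. Every animal lies below 0 for Nefh, Mapt, Tubb3, Stmn2 and Thy1, while Nefm and Ina lie on both sides of it.

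Covariation between animals was examined in the 29 inputs after group and sex means were removed from log2 CPM. Map1b and Map2 have no values, which leaves 28 pairs of genes. Of these, 4 had an adjusted p under 0.05 by a two-sided permutation test with 100000 resamples within groups. They were Nefh with Tubb3 (r 0.66, Spearman's rho 0.54, adjusted p 0.00784), Mapt with Thy1 (r 0.60, rho 0.55, adjusted p 0.00784), Stmn2 with Thy1 (r 0.56, rho 0.62, adjusted p 0.0177) and Nefm with Nefh (r 0.54, rho 0.52, adjusted p 0.0161). The same 4 pairs passed with rank correlation.

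Among the neurofilament chains, Nefl and Nefm had an r of 0.49 (adjusted p 0.0672), Nefm and Nefh 0.54 and Nefl and Nefh 0.12 (adjusted p 0.694), and whether these differ was not tested. Leaving out the 2 libraries farthest from the median ended the calls of 3 of the 4 pairs, Nefh with Tubb3 (r 0.46, adjusted p 0.0897), Nefm with Nefh (r 0.46, adjusted p 0.0897) and Mapt with Thy1 (r 0.47, adjusted p 0.0523). Stmn2 with Thy1 kept its call (r 0.59, adjusted p 0.0392), and Nefl with Nefm then passed (r 0.58, adjusted p 0.0468). Stmn2 with Thy1 lost its call under library size scaling (r 0.45, adjusted p 0.0902). Without old early replicate 10, Nefh with Tubb3 had an r of 0.55 (adjusted p 0.0497), and Nefm with Nefh lost its call but kept an r of 0.39 (adjusted p 0.0809, unadjusted permutation p 0.0173). Within groups, Nefh with Tubb3 had an r of 0.16 in young inputs and, in old ones, 0.82 with early and 0.32 with late induction, and Mapt with Thy1 had 0.35, 0.84 and 0.47.

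The genes were also set against marker lists of cell types and tissues. A list's value was the mean log2 CPM of its genes per library, with group and sex means removed. In this way 64 pairs of a gene and a list were computed, and 5 had an adjusted permutation p under 0.05. Nefl and Mapt followed the neuron markers, with r of 0.69 (rho 0.64, adjusted p 0.0064) and 0.65 (rho 0.69, adjusted p 0.0096), and with r of 0.61 and 0.56 without the 2 farthest libraries. Mapt also had an r of 0.47 with the oligodendrocyte markers (rho 0.46), which did not pass (adjusted permutation p 0.0606). Without the 2 farthest libraries that r was 0.55. Tubb3 and Nefh followed the markers of parvalbumin interneurons, fast-spiking cells rich in neurofilaments, with r of 0.57 (rho 0.61, adjusted p 0.0277) and 0.45 (rho 0.46, adjusted p 0.0417), and with r of 0.57 and 0.40 without the 2 farthest libraries. By rank correlation Tubb3 passed (adjusted permutation p 0.0218) and Nefh did not (0.085). Ina with the same list had an r of 0.59 (rho 0.29, adjusted p 0.0328) that dropped to 0.27 without the 2 farthest libraries, so it rests on those. Nefh had an r of 0.69 with the thalamus list (rho 0.49), which did not pass adjustment, and 0.28 without old early replicates 2 and 10. With the striatum list Nefh had an r of 0.47 (rho 0.51), which just missed adjustment (adjusted permutation p 0.0503), and 0.37 without the 2 farthest libraries. The striatum and parvalbumin lists share Tac1.

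**Figure D4:**
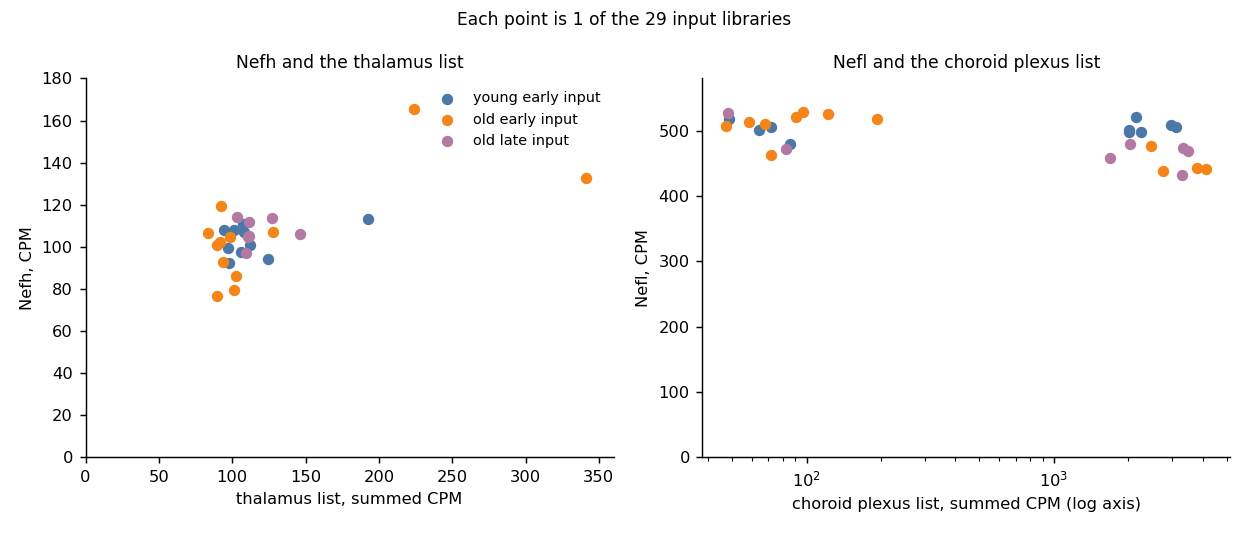
Left, Nefh in CPM against the summed thalamus list in CPM, and right, Nefl in CPM against the summed choroid plexus list on a log axis, with 1 point per input library coloured by group. The 2 highest Nefh values belong to the 2 old early-induced libraries highest in thalamus genes, and low Nefl values of old animals sit mostly among libraries over 1000 CPM of choroid plexus genes.

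By the measure of likeness, the Pearson r over the 29 inputs with group and sex means removed, among 10507 genes with a mean log2 CPM over 3, the nearest genes to Ina were Pacsin1 (0.91) and Rims1 (0.89), and to Tubb3 Kcnj12 (0.89) and Fhod3 (0.85). Stmn2 was nearest Snap25 (0.87) and Tmem30a (0.83), and Nefh nearest Adarb1 (0.84) and Sgpp2 (0.84). Nefl was nearest Atp2b1 (0.81) and Skiv2l2 (0.79), Nefm nearest Chgb (0.79) and Nbr1 (0.73), Mapt nearest Phyhipl (0.77) and Rtn3 (0.74), and Thy1 nearest Ube2d2a (0.81) and Cfl1 (0.80). For Ina, Tubb3, Stmn2 and Thy1 both neighbours had an r of at least 0.71 within every group, whereas Adarb1 and Nefh had -0.29 in the 7 old late-induced inputs. The neighbours were picked by r over these same libraries, so the values within groups describe the likeness and do not test it. No gene of the set was among the 2 nearest to another.

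The wider cytoskeleton was described with 8 lists of related genes, counted with the same edgeR fits. Not every called gene of a list is named. Where called genes are left unnamed, a gene named for a single age comparison may also be called in the other. The counts are to be read against all genes, of which 13% were higher and 12.6% lower with early induction, and 17% higher and 17.5% lower with late induction. Of 13 other tubulins, 2 were higher and 1 lower with early induction, and 4 were higher and 1 lower with late induction. Under upper quartile scaling these counts were 4 and 0 in each comparison. Tuba1b and Tuba1a, major alpha-tubulins of brain, were higher by 0.15 and 0.12 on the log2 scale in early-induced and by 0.20 and 0.15 in late-induced animals. Tubb4a, a tubulin of neurons and oligodendrocytes, was higher by 0.16 in late-induced animals, and Tubb2a was lower by 0.07 and 0.09, a call that upper quartile scaling removed. The median over the list was 0.03 and 0.08.

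Among the other microtubule-associated proteins and stathmins, 8 of 22 were listed at 0 and 14 were tested. With early induction 3 were higher and 5 lower in old animals, and with late induction 3 higher and 4 lower. The stathmin genes Stmn1 (0.23 and 0.42) and Stmn4 (0.15 and 0.26) were higher. Mapre1, which binds growing plus ends, was higher by 0.09 and 0.14. Camsap3, a minus-end binding protein, was lower (-0.24 and -0.17), as was the doublecortin-like kinase gene Dclk2 (-0.13 and -0.26). Dcx, a marker of newborn neurons, was lower in early-induced animals (-0.27) and Camsap2 in late-induced animals (-0.29). The falls of this list are not all named, so Dcx and Camsap2 may be called in the other comparison too.

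Of 19 genes for kinases and phosphatases that act on tau, 2 were higher and 3 lower in early-induced and 1 higher and 4 lower in late-induced old animals, 5 called in each, where 25.6% and 34.5% of all genes were called. With early induction, 4 were higher and 3 lower under upper quartile and library size scaling. Ppp2r2a, a regulatory subunit of protein phosphatase 2A, was higher (0.15 and 0.19). Cdk5 was higher in early-induced animals (0.08). The kinase gene Mark3 was lower in both (-0.12 and -0.14), Mark1 (-0.15) and Fyn (-0.10) in early-induced, and Mark4 (-0.24) and Ttbk2 (-0.23) in late-induced animals. The falls with late induction are not all named, so Mark1 or Fyn may be among them.

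Of 19 genes for motors and their adaptors, 1 was higher and 2 lower in early-induced, and 2 were higher and 6 lower in late-induced old animals. Kif5b, a kinesin heavy chain of many cell types, was higher (0.20 and 0.27), and Kif5a, a neuronal kinesin heavy chain, was higher in late-induced animals (0.16). Dync1h1, the dynein heavy chain gene, was lower (-0.19 and -0.25), and so was the dynein adaptor gene Bicd2 (-0.14 and -0.28), with Bicd1 lower in late-induced animals (-0.36). In the spectrin and ankyrin membrane skeleton 5 of 13 genes were listed at 0, and of the 8 tested none was higher and 2 and 3 were lower. They were Add2 (-0.37 and -0.71), an adducin, Ank3 (-0.15 and -0.19), the ankyrin of the axon initial segment, and in late-induced animals Epb41l1 (-0.14).

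Enzymes that modify or sever tubulin had 2 of 18 genes higher and 3 lower in early-induced, and 1 higher and 3 lower in late-induced animals. Hdac6, a tubulin deacetylase, was lower (-0.22 and -0.30), as were Agtpbp1, a deglutamylase (-0.10, a call lost under upper quartile scaling with an adjusted p of 0.0655, and -0.22), and Ttll4, a glutamylase at a low level (-0.45 and -0.52). The severing enzyme gene Fign was higher (0.67 and 0.66), from 1.52 CPM in young, and Svbp was higher in early-induced animals (0.30).

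Of 9 other intermediate filament genes, 6 were higher and 1 lower in early-induced, and 6 higher and 0 lower in late-induced old animals, with list medians of 0.52 and 0.65. Gfap, the filament of astrocytes, rose from 439 to 796 and 929 CPM (0.84 and 1.03), and Vim, of astrocytes, vessels and other cells, rose by 0.75 and 0.97. Prph, a neuronal filament at a few CPM, was higher in early-induced animals (0.75) and Nes in late-induced animals (0.86). Prph and Nes may be called in the other comparison too, since the rises are not all named. The lamin gene Lmnb2 was lower in early-induced animals (-0.22). These changes came with higher counts of glial markers. Called higher were 14 and 15 of 15 microglia, 10 and 11 of 12 oligodendrocyte and 4 and 4 of 10 astrocyte markers. In each comparison 6 astrocyte markers were not called. Gfap is itself among the astrocyte markers called higher, so for this gene the change and the marker are the same measurement. The part of glial content in the values of the intermediate filament list, or in those of Mapt, was not tested. Lmna was higher in late-induced than in early-induced old animals (0.22 ± 0.04, SE, edgeR adjusted p 0.0257).

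Growth cone and actin-linked genes split, with 5 of 14 higher and 6 lower in each age comparison. Dpysl2 (0.27 and 0.43), which binds tubulin in axons, Gap43 (0.13 and 0.23), a growth cone protein, and Actb (0.23 and 0.22) were higher. Dpysl5 (-0.31 and -0.36) was lower in both. The called falls also included Basp1 (-0.30) and Dpysl3 (-0.23) with early induction. With late induction they included Dbn1 (-0.33), the drebrin gene of dendritic spines, and Dpysl4 (-0.31). The falls are not all named, so these genes may be called in the other comparison too. Marcks was higher in late-induced than in early-induced old animals (0.26 ± 0.05, SE, edgeR adjusted p 0.0257).

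**Figure D5:**
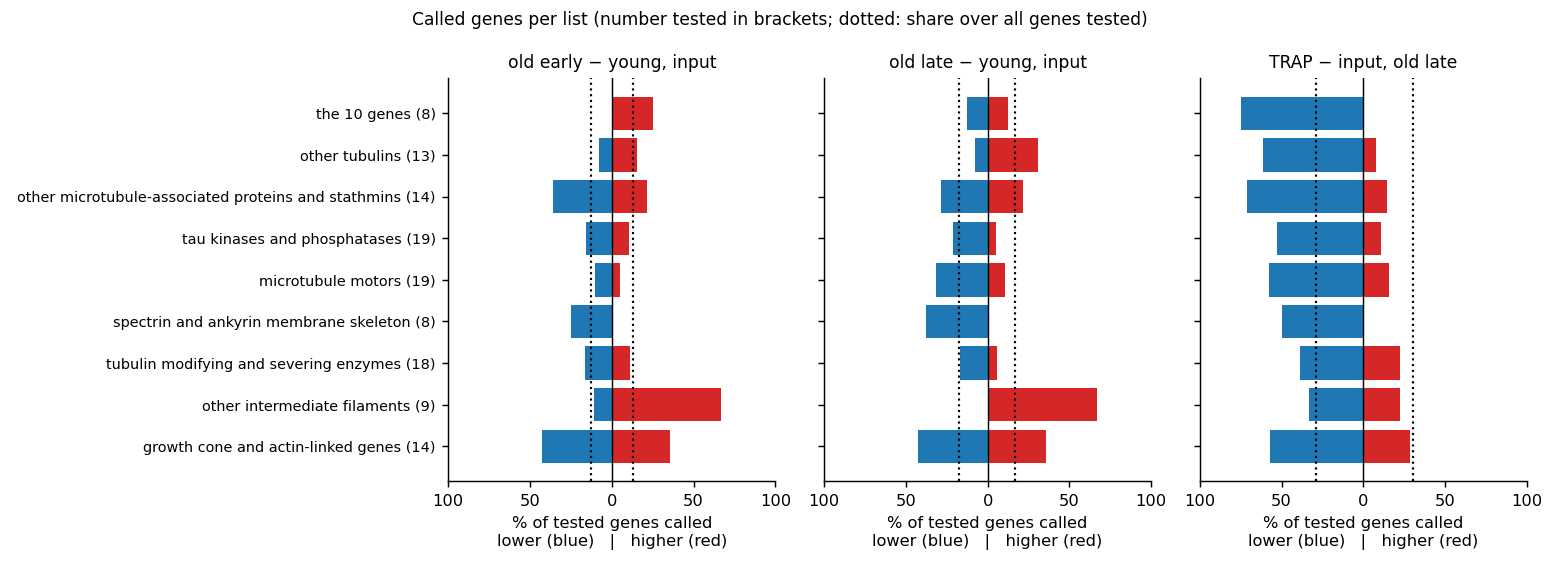
Share of tested genes called higher (red, right) or lower (blue, left) in each list, in 3 comparisons, with the number tested in brackets and dotted lines for the share over all genes. Other intermediate filaments stand to the right in both age comparisons, and most lists stand to the left in TRAP.

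In the pulldown, 28.8% of all genes were called lower and 30.4% higher, and each related list had more genes called lower than higher. Called lower and higher were 8 and 1 of 13 other tubulins, 10 and 2 of 14 microtubule-associated proteins and stathmins, 10 and 2 of 19 tau kinases and phosphatases, 11 and 3 of 19 motors, 4 and 0 of 8 membrane skeleton genes, 7 and 4 of 18 tubulin modifying enzymes, 3 and 2 of 9 other intermediate filaments, and 8 and 4 of 14 growth cone and actin-linked genes. The counts shift with scaling, for example to 11 and 2 of 18 tubulin modifying enzymes under upper quartile scaling. Kif5a fell from 2564 to 1067 CPM (-1.27), further than any of the 8 genes described here, Dcx by 1.12, Gap43 by 0.70, Stmn4 by 0.62 and Kif5c by 0.58 on the log2 scale. Genes that rose were Marcks (1.43), Tubb6 (1.12), a tubulin at 6.68 CPM in input, Kif21b (1.09), Actb (0.80), Svbp (0.81), Bicd2 (0.62), Mapre1 (0.56) and Cfl1 (0.40), the cofilin gene of actin turnover. Nes (1.72) and Lmnb1 (0.76) rose among intermediate filaments, while Bfsp2 fell by 1.27.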

How the data were processed

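PolyA RNA of hippocampus was sequenced from 29 inputs and 7 TRAP libraries. The authors deposited 1 table with estimated counts per gene, marked raw per the file headers, and 77.4% of its nonzero values are not whole. Values of overlapping genes are therefore uncertain. The submitters' processing notes name mm10 and DESeq2 with no role. Aligner, counter and strand handling are not given in the sources used here. Labels name separate animals as replicates.

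Expected counts were rounded and tested with edgeR 4.0.16 in R 4.3.3 (filterByExpr with a minimum count of 10, TMM, glmQLFit, glmQLFTest), with Benjamini-Hochberg adjustment over all genes and calls at an adjusted p under 0.05. The 29 inputs entered 1 fit with group and sex, and TRAP and input of old late-induced animals another with sex. SEs were derived from the F statistic, and 95% intervals are 1.96 SE either side. The procedures were tested on simulated data. Alternatives were DESeq2 1.42.0, limma 3.58.1 (voom), other scalings, filters and groups, an animal block, and each library left out. Permutation tests used numpy 2.4.6. TRAP and input libraries of 1 animal deviated together (r from 0.29 to 0.44, against a median of -0.09 between animals). Named genes were all members, up to 3 called rises and 3 called falls per list and comparison, the 2 most alike genes per member, and Cx3cr1. Members, lists and tests were chosen with earlier results of these data known. The choroid plexus and thalamus alternatives were chosen after the list sums were seen. The planned 45 pairs of members became 28, because 2 members have no values.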

Additional observations from a re-analysis of the deposited data

Results flagged for a closer look

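Nefm, the medium neurofilament chain gene, had 1 library far from the others. Old late-induced input replicate 4 had 404.3 CPM, and the next highest of the 7 libraries had 320.6 CPM, a gap of 0.71 of the group's range, where 0.568 is the 95% critical value of Dixon's ratio. Of 24 sets of 7 or 10 libraries examined for the 8 genes, this was the only one, and about 1.2 would be found by chance. Groups of more than 10 libraries, such as the 12 old inputs with early induction, are outside the test's range. The TRAP library of the same animal had 297 CPM, close to the TRAP median of 303 CPM. Without this library the Nefm difference between old late-induced and young inputs was -0.03 on the log2 scale, against 0.03 with it. The cause was not tested.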

How the results depend on the processing

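Mapt kept its calls in both age comparisons under every change of scaling, filter, tool, sex or groups and without any single library. It lost them when only 1 choroid plexus class was fitted. This held for either class in early-induced and for the high class in late-induced against young inputs. The 2 genes called in old early-induced against young inputs became 1 without a filter on low counts, 1 in females only and 0 in the low choroid plexus class, and ranged from 1 to 3 without single libraries. The 2 called in old late-induced against young inputs became 1 without the filter, in females only, without the sex covariate and in the high class, and ranged from 1 to 3. An equal count can hide other genes, since Ina took the place of Thy1 in the first comparison when only its 2 groups were fitted, and Thy1 that of Ina in the second under upper quartile scaling. In the high class alone, the genes called were Nefl and Ina in the first comparison and only Nefl in the second. Of 4 covarying pairs called, 1 kept its call without the 2 farthest libraries. The 6 called in the pulldown stayed at 6 without any animal and with the animal as a replicate block, which changed no call (Nefm adjusted p 0.0535, Ina 0.112, by edgeR). Induction age and sex stayed at 0 without any library.

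Some uncalled log2 fold changes turned sign. For early-induced against young inputs these were Nefl in females only (0.026) and in the low class (0.0017), Nefm in the high class (-0.0868), with class as a covariate (-0.023) and without libraries high in thalamus genes (-0.0343), and Nefh in the high class (-0.0512) and without those libraries (-0.0807). For late-induced against young they were Nefh in the low class (-0.0565), Nefm in the high class (-0.016) and Stmn2 in the high class (0.0212). Between old groups it was Nefh in females only (-0.0337). For sex they were Mapt (0.0044, 0.0011 and 0.0095) and Stmn2 (0.0052 and 0.0021), under upper quartile scaling, library size scaling and, for Mapt, early-induced groups only. Without single libraries, ranges crossing 0 were, for early-induced against young, Nefh from -0.028 to 0.065 and Nefm from -0.0156 to 0.0269, and for late-induced against young, Nefm from -0.0339 to 0.0501. Between old groups they were Ina from -0.0682 to 0.015, Nefh from -0.0174 to 0.0825 and Nefm from -0.0336 to 0.0518, and for sex Mapt from -0.0126 to 0.0084 and Stmn2 from -0.0159 to 0.0128. The cause was not tested.

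Over all genes, counts moved by over 1.5 times in females only (1198 against 3826 for early-induced and 2787 against 5151 for late-induced against young). They also did in the low class (1234 and 1875) and the high class (2058 and 2635), where fewer libraries were fitted. Between old groups, 5 calls became 58 with DESeq2, 182 in females only and 0 with these groups alone, and for sex 26 became 63 with DESeq2 and 12 in early-induced groups.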
